A study of Mus musculus with 4 samples.

Results

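The keratins examined here were 4 that are used as markers of luminal mammary epithelium, *Krt7*, *Krt8*, *Krt18* and *Krt19*, and 4 that are used as markers of basal epithelium, *Krt5*, *Krt14*, *Krt15* and *Krt17*. Probe sets were taken when the platform annotation gave them a single symbol and that symbol was one of these genes. All 8 genes were measured, by 13 of the 45101 probe sets on the array, 6 for the luminal and 7 for the basal keratins. They were measured on 4 Affymetrix mouse arrays, 1 per genotype, with RNA of second-passage mammary fibroblasts from 16-week-old female FVB/N mice. The *ErbB2 Ets2* null array came from ErbB2;Fsp-cre;Ets2db/loxP mice and the *ErbB2 Ets2* present array from ErbB2;Ets2db/loxP mice. The normal *Ets2* null array came from FspCre;Ets2db/loxP mice and the normal *Ets2* present array from Ets2db/loxP mice. All 4 genotypes therefore carried the conventional Ets2db knockout allele beside a loxP allele, so that the loxP allele was the only intact copy in the mice called *Ets2* present. The deletion depended on Cre driven by the promoter of *Fsp*, and the *ErbB2* oncogene was driven in the epithelial cells of the gland by the *MMTV* promoter. Whether the RNA of an array was pooled over animals is not stated in the labels or methods.

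Keratins build the intermediate filaments of epithelial cells, and each filament needs a type I and a type II keratin as partners. *Krt8* (type II) and *Krt18* (type I) form the filaments of simple and luminal epithelia, where *Krt7* (type II) and *Krt19* (type I) are also made. *Krt5* (type II) and *Krt14* (type I) form those of basal and myoepithelial cells, whereas fibroblasts build their filaments from vimentin. Levels are given as the deposited log2 values made with RMA, in which a difference of 1 is 2-fold. RMA gives no detection call, and a fold is given only where both values are at 6 or more, since dimmer probe sets may not rise above background. With 1 array per genotype there was no replicate spread and no test was made, and differences over 2 on the log2 scale (4-fold) are pointed out by size alone.

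The cells carried the markers of fibroblasts. All 20 genes of a fibroblast list were measured. On each array 19 or 20 of them were at log2 6 or more, beside 10327 to 10407 of all 18194 genes. *Vim*, the filament protein of these cells, lay between 13.97 and 14.06, and *Col1a1*, a chain of collagen I, between 13.10 and 13.76. The brightest probe set of *Ets2* was at 8.31 and 8.34 in *ErbB2 Ets2* null and present fibroblasts, and at 8.35 and 8.14 in normal *Ets2* null and present fibroblasts, so it did not separate the genotypes. Where its probes lie relative to the deleted part of the gene is not known here, so these values neither check the labels nor measure the deletion. Array medians ran between 5.51 and 5.54, and Pearson's r between arrays over all probe sets was 0.988 to 0.993.

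Most of the keratins were high on the *ErbB2 Ets2* present and the normal *Ets2* null array, and low on the other arrays. *Krt18* had a log2 value of 5.01 in *ErbB2 Ets2* null fibroblasts, against 8.52 in *ErbB2 Ets2* present fibroblasts. In normal fibroblasts it was at 8.78 in the *Ets2* null array, against 5.21 in the *Ets2* present array. The low values of *Krt18* are below 6, and the differences were -3.52 in *ErbB2* and 3.57 in normal fibroblasts. *Krt8*, its filament partner, was above 6 on all 4 arrays by its brightest probe set. That probe set was at 6.15 in *ErbB2 Ets2* null and 9.25 in *ErbB2 Ets2* present fibroblasts, which is 8.56-fold lower without *Ets2*. In normal fibroblasts it was at 9.73 in the *Ets2* null and 6.65 in the *Ets2* present array, 8.49-fold higher without *Ets2*. The 2 other probe sets of *Krt8* ran the same way, with differences of -3.73 and -2.88 in *ErbB2* and of 3.48 and 2.85 in normal fibroblasts. Both were below 6 on the 2 low arrays, and both have names ending in _x_at, a class that may also read related transcripts.

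**Figure D1:**
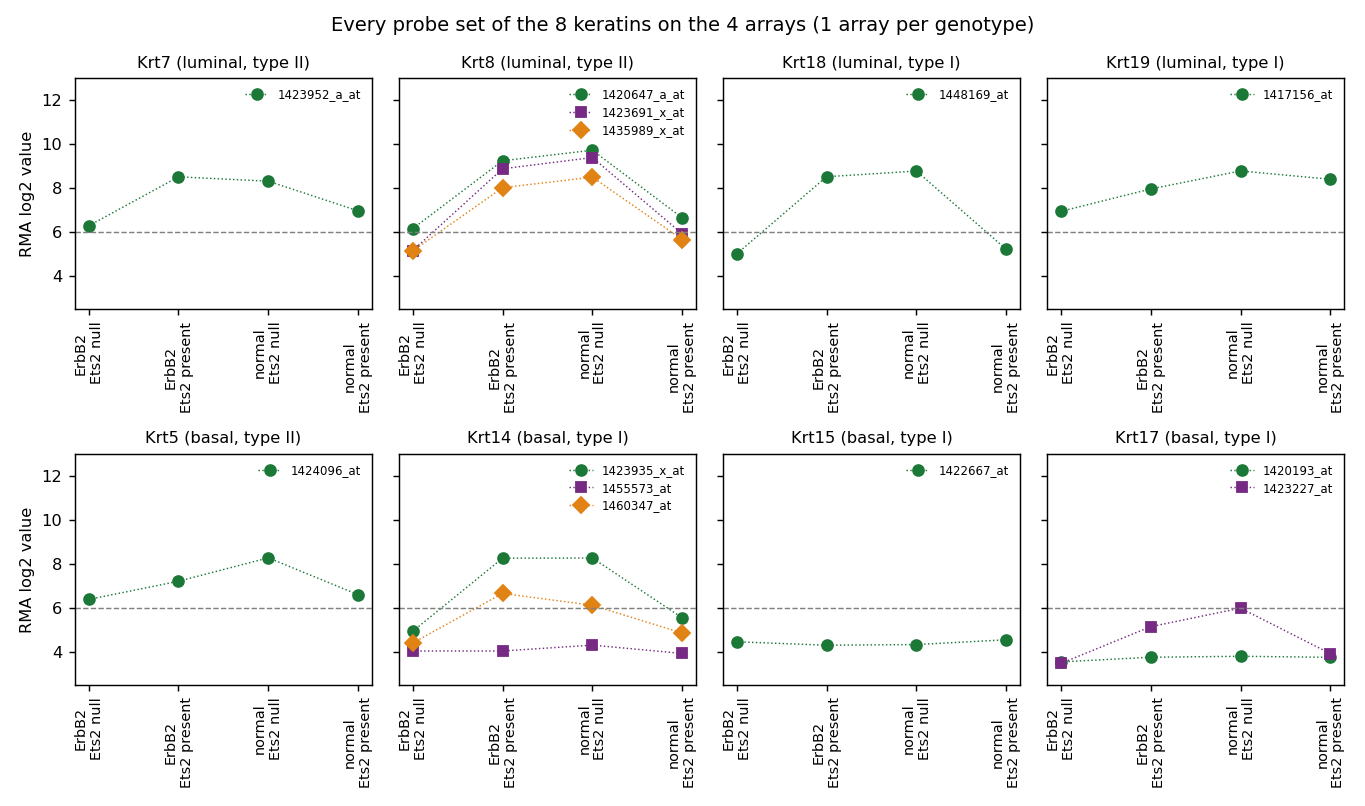
RMA log2 value (y axis) of each probe set of the 8 keratins on the 4 arrays (x axis), 1 array per genotype, with dotted lines joining the points of a probe set and a dashed line at log2 6. The 3 probe sets of *Krt8*, that of *Krt18* and the brightest of *Krt14* are high on the inner arrays of each panel, while *Krt15* stays between 4.30 and 4.54.

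*Krt8* and *Krt18* are next to each other in the mouse genome, on chromosome 15 and in opposite orientation, and their promoter windows are shown because the partners moved together. The sequences are those of RefSeq on GRCm38.p6, 250 bases before to 50 bases after the annotated start, read 5′ to 3′ on the strand of the gene. Capitals mark GGAA, the core of the sites that ETS factors bind, on either strand (TTCC on the other).
*Krt8*, chr15:102004293-102004592, minus strand: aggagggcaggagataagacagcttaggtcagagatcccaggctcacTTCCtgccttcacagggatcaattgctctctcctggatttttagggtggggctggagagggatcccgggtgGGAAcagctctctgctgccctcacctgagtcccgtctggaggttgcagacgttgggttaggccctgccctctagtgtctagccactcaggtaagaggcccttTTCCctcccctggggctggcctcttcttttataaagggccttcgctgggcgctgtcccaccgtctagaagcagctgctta
*Krt18*, chr15:102027966-102028265, plus strand: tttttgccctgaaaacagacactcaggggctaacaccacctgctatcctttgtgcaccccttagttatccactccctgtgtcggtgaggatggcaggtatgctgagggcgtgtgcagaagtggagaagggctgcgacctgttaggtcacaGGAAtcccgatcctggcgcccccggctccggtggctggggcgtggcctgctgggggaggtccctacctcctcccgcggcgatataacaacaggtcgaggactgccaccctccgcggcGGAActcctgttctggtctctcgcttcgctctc
The *Krt8* window held 3 such cores and the *Krt18* window 2. Of the 32851 RefSeq windows of that length, 96% held at least 1, with a median of 3, so these counts do not set the keratins apart. TGANTCA, the site of AP-1 factors, was in neither window on either strand and in 7.81% of all windows. Of the 8 keratins, *Krt7*, *Krt8*, *Krt18*, *Krt5* and *Krt14* had an entry in the table, and the window of *Krt14*, which does not lie at the start of the annotated gene, was not used.

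Measured neighbours of this pair did not share its pattern. *Krt78*, the keratin next to *Krt8*, had differences of 0.68 in *ErbB2* and 0.15 in normal fibroblasts. *Krt79*, a further gene away, had 0.02 and -0.23. *Eif4b*, a translation factor on the far side of *Krt18*, had 0.50 and -0.27.

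*Krt7* and *Krt19*, the other luminal keratins, differed less than *Krt8* and *Krt18*. *Krt7*, which is made in ductal epithelia, was at 6.28 in *ErbB2 Ets2* null and 8.52 in *ErbB2 Ets2* present fibroblasts, 4.71-fold lower without *Ets2*. In normal fibroblasts it was at 8.32 in the *Ets2* null and 6.97 in the *Ets2* present array, 2.55-fold higher. *Krt19*, a type I keratin that is unusually short, was at 6.94 in *ErbB2 Ets2* null and 7.96 in *ErbB2 Ets2* present fibroblasts, 2.03-fold lower. In normal fibroblasts it was at 8.79 in the *Ets2* null and 8.41 in the *Ets2* present array, 1.30-fold higher. *Krt19* was the only luminal keratin whose normal *Ets2* present value lay above its *ErbB2 Ets2* present value.

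Among the basal keratins *Krt14* differed most in both *Ets2* comparisons, and *Krt15* hardly differed. On its brightest probe set *Krt14* was at 4.93 in *ErbB2 Ets2* null and 8.26 in *ErbB2 Ets2* present fibroblasts. In normal fibroblasts it was at 8.27 in the *Ets2* null and 5.54 in the *Ets2* present array. The differences were -3.33 and 2.73. That probe set is also of the _x_at class. Another probe set of *Krt14* differed by -2.26 and 1.26, and the dimmest, between 3.92 and 4.30 on all arrays, by -0.00 and 0.38. *Krt5* was at 6.38 in *ErbB2 Ets2* null and 7.21 in *ErbB2 Ets2* present fibroblasts, 1.78-fold lower without *Ets2*. In normal fibroblasts it was at 8.28 in the *Ets2* null and 6.59 in the *Ets2* present array, 3.21-fold higher. *Krt17*, a keratin of hair follicles and injured epithelium, was at 3.46 and 5.14 in *ErbB2 Ets2* null and present fibroblasts and at 5.98 and 3.91 in normal *Ets2* null and present fibroblasts, so that no value reached 6. Its dimmer probe set lay between 3.54 and 3.79. *Krt15*, a keratin of basal cells and of the hair follicle bulge, stayed between 4.30 and 4.54 and did not reach 6 on any array.

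**Figure D2:**
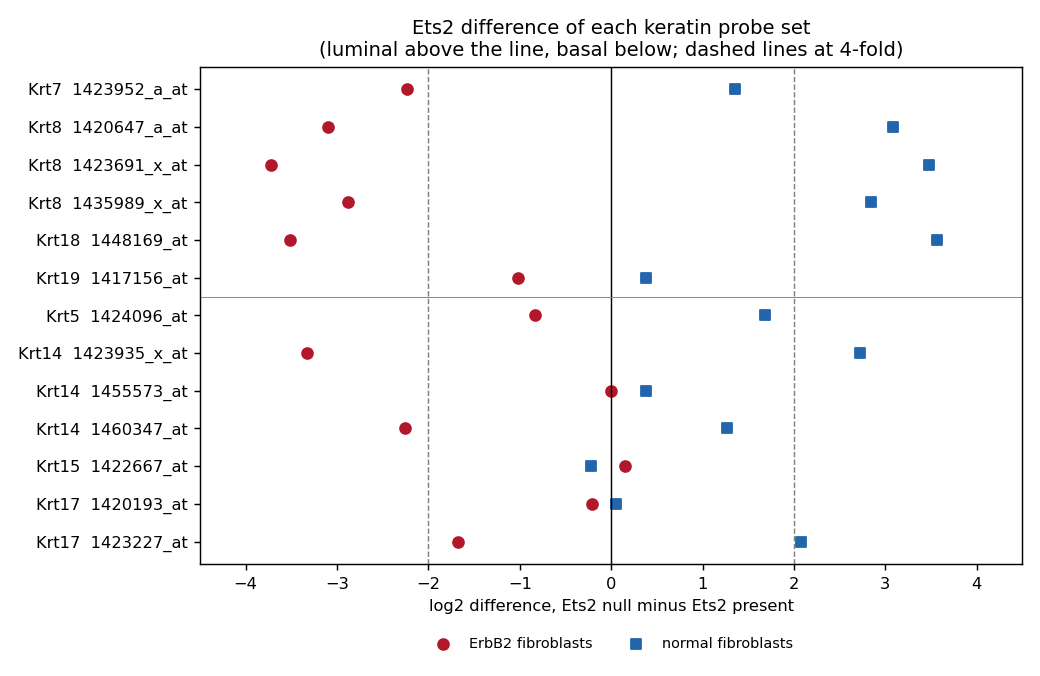
Log2 value of *Ets2* null minus *Ets2* present fibroblasts (x axis) for each of the 13 probe sets (rows) in *ErbB2* (red circles) and normal fibroblasts (blue squares), with 1 array per genotype and dashed lines at 4-fold. The probe sets of *Krt8* and *Krt18* lie outside both dashed lines, at -2.88 to -3.73 in *ErbB2* and 2.85 to 3.57 in normal fibroblasts.

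Counted over genes by the brightest probe set, 4 of the 8 keratins were more than 4-fold lower without *Ets2* in *ErbB2* fibroblasts (*Krt7*, *Krt8*, *Krt18* and *Krt14*), where 0.324% of all 18194 genes were. None was more than 4-fold higher, where 0.033% were. In normal fibroblasts 4 of 8 were more than 4-fold higher without *Ets2* (*Krt8*, *Krt18*, *Krt14* and *Krt17*), where 0.0824% of all genes were, and none was lower by that size, where 0.022% were. With the probe sets of each gene averaged, that count was 2 of 8. By probe set, 7 of 13 were more than 4-fold lower in *ErbB2* fibroblasts (5 of 6 luminal and 2 of 7 basal), against 0.26% of the singly named probe sets. In normal fibroblasts 6 of 13 were more than 4-fold higher (4 of 6 luminal and 2 of 7 basal), against 0.0658%. Among all genes *Krt18*, *Krt14* and *Krt8* had the 5th, 7th and 8th lowest differences in *ErbB2* fibroblasts, and the highest, the 5th and the 4th highest in normal fibroblasts.

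**Figure D3:**
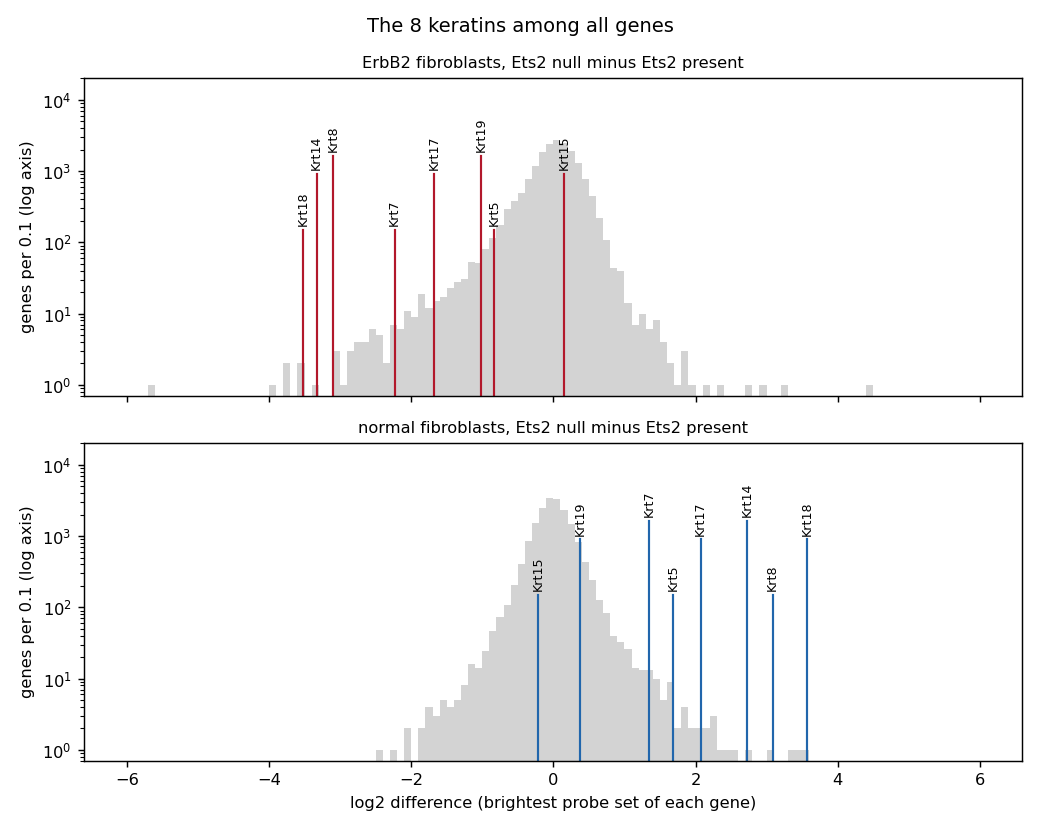
Number of genes (y axis, log scale) by log2 value of *Ets2* null minus *Ets2* present fibroblasts (x axis, brightest probe set of each gene), in *ErbB2* fibroblasts above and in normal fibroblasts below, with the 8 keratins as coloured lines of arbitrary height. *Krt18*, *Krt14* and *Krt8* lie at the lower end in *ErbB2* fibroblasts and at the upper end in normal fibroblasts, and *Krt15* lies in the bulk of both.

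The luminal and basal keratins were set side by side by their medians. In *ErbB2* fibroblasts the median difference without *Ets2* was -2.67 over the 4 luminal and -1.25 over the 4 basal keratins, beside 0.04 over all genes. The ranges overlapped, at -3.52 to -1.02 for luminal and -3.33 to 0.16 for basal keratins. In normal fibroblasts the medians were 2.22 and 1.88, beside -0.00 over all genes, and the ranges were 0.38 to 3.57 and -0.22 to 2.73. Genes of a class are not replicates of each other, so these values describe the class without testing it.

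How alike the keratins were was measured as the root mean square distance between the log2 profiles over the 4 arrays, each centred on its own mean. Of the 28 pairs the closest was *Krt8* with *Krt14*, at 0.18, followed by the filament partners *Krt8* and *Krt18*, at 0.26, and by *Krt18* with *Krt14*, at 0.31. *Krt5* was 0.97 from its partner *Krt14*, in place 19 of 28, and was closest to *Krt17*, at 0.33. *Krt7* was also closest to *Krt17*, at 0.38. For *Krt14* this order rests on its _x_at probe set. By the next brightest, *Krt14* was 0.63 from *Krt5*, 0.76 from *Krt8* and 0.94 from *Krt18*, and closest to *Krt7*, at 0.15. A small distance between dim or flat profiles says little, as for *Krt17*, which stayed below 6.

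The other keratins on the array differed less. A further 40 keratin genes were measured by 48 probe sets, and 11 of these genes reached log2 6 on an array. On each single array 9 or 10 of the 40 were at 6 or more, beside 10327 to 10407 of all 18194 genes. By the brightest probe set none differed by more than 2-fold between *Ets2* null and *Ets2* present arrays, in *ErbB2* fibroblasts (a size that 1.74% of all genes passed downwards and 0.341% upwards) or in normal fibroblasts (0.621% were higher and 0.357% lower). Their median differences were 0.10 and 0.03. *Krt6a*, a keratin of wounded and follicular epithelium and a usual partner of *Krt17*, was at 7.46 and 6.96 in *ErbB2 Ets2* null and present fibroblasts and at 7.50 and 6.77 in normal *Ets2* null and present fibroblasts. A dimmer probe set of *Krt6a* did differ, with 4.83 and 5.48 in *ErbB2* and 6.41 and 4.68 in normal fibroblasts in that order, in the direction of the 8 keratins. *Krt20*, a keratin of intestinal epithelium, was at 4.86 and 5.39 in *ErbB2* and at 6.58 and 5.58 in normal fibroblasts, in the same order, and its difference in normal fibroblasts, just under 2-fold, was the largest of the 40. *Krt20* was also the only member of the 40 past 2-fold in an oncogene comparison by the brightest probe set. That difference was -1.71, for *ErbB2* minus normal *Ets2* null fibroblasts, where the dimmer probe set of *Krt6a* had -1.58. *Krt80*, next to *Krt7* on chromosome 15, was at 5.56 and 6.10 in *ErbB2* and at 6.22 and 6.55 in normal fibroblasts. *Krt10*, a keratin of differentiated epidermis, lay between 6.14 and 6.53. *Krt42*, *Krt78*, *Krt81*, *Krt83*, *Krt84*, *Krt88* and *Krt33b* also reached 6, and their differences lay between 0.10 and 0.68 in *ErbB2* and between -0.17 and 0.35 in normal fibroblasts.

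**Figure D4:**
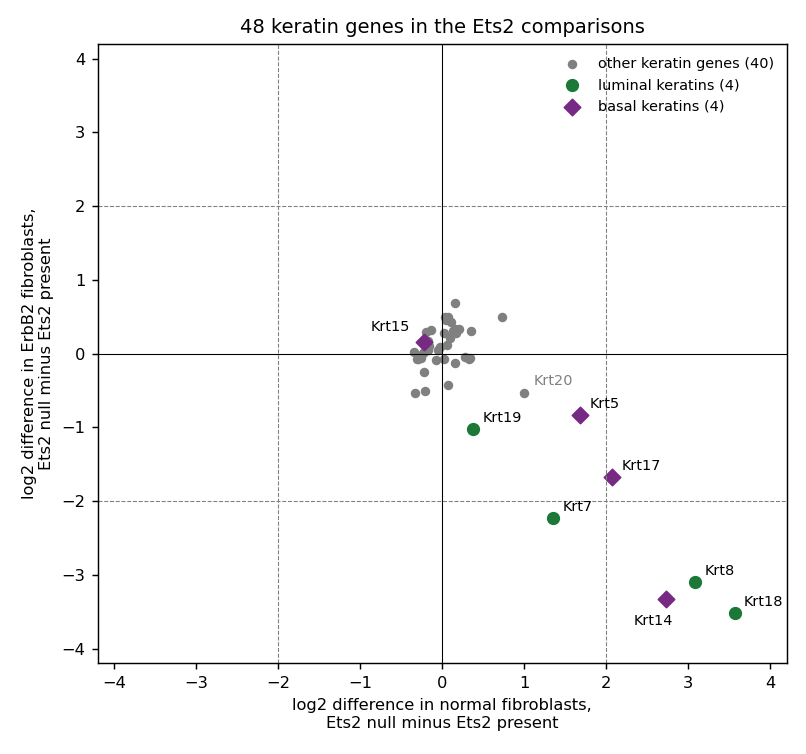
Log2 value of the *Ets2* null minus the *Ets2* present array in normal (x axis) and *ErbB2* fibroblasts (y axis) for the 48 measured keratin genes, by the brightest probe set of each, with dashed lines at 4-fold and 1 array per genotype. The 40 other keratins (grey) lie around 0, and all of the 8 but *Krt15* lie to the lower right.

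Read as oncogene comparisons, the same 4 arrays gave keratin differences of opposite sign with and without *Ets2*. These comparisons share their arrays with the ones above and are no further evidence for the pattern. In *Ets2* null fibroblasts *Krt18* was at 5.01 in *ErbB2* and 8.78 in normal fibroblasts, a difference of -3.77, and *Krt8* was 11.9-fold lower in *ErbB2* fibroblasts. *Krt7* was 4.10-fold, *Krt5* 3.72-fold and *Krt19* 3.58-fold lower there, and *Krt14* and *Krt17* differed by -3.34 and -2.52. In *Ets2* present fibroblasts *Krt18* was at 8.52 in *ErbB2* and 5.21 in normal fibroblasts, and *Krt8* was 6.08-fold and *Krt7* 2.93-fold higher in *ErbB2* fibroblasts. *Krt5* was 1.53-fold higher and *Krt19* 1.36-fold lower. Without *Ets2*, 5 of 8 keratins were more than 4-fold lower in *ErbB2* fibroblasts, where 0.22% of all genes were, and 3 of 8 with the probe sets of each gene averaged. With *Ets2*, 3 of 8 were more than 4-fold higher, where 0.11% of all genes were. That count was 2 of 8 with probe sets averaged, or without _x_at and _s_at probe sets. The luminal medians were -2.81 without and 2.08 with *Ets2*, and the basal medians -2.21 and 0.92. *Krt19* was thus lower in *ErbB2* fibroblasts both with and without *Ets2*.

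The order of the arrays was nearly the same for most keratins. Which arrays count as high was read from these keratins, and the values are those of the *Ets2* comparisons. The counts that follow therefore describe the pattern and are no further evidence for it. For 5 of the 8, *Krt18*, *Krt14*, *Krt8*, *Krt7* and *Krt17*, both the *ErbB2 Ets2* present and the normal *Ets2* null value lay more than 1 on the log2 scale above both other values, which held for 0.126% of all genes. For *Krt18* the gap was 3.31, and the values within the high and within the low arrays were 0.26 and 0.21 apart. A gap over 2 was found in 5 genes of the array, 0.0275% of all. Of these, 3 were *Krt18*, *Krt14* and *Krt8*, and the others were *Clu*, a secreted chaperone, and *Serpinb2*, an inhibitor of plasminogen activators. *Serpinb2* was at 3.43 and 6.11 in *ErbB2 Ets2* null and present fibroblasts. In normal *Ets2* null and present fibroblasts it was at 5.84 and 3.60, both below 6.

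Genes with profiles most like a keratin were sought for the 5 keratins whose brightest probe set ranged over more than 2. *Clu* was closest to *Krt14*, read by its _x_at probe set, at a distance of 0.19 over the 4 arrays, and was also the closest to *Krt8*, at 0.31, and to *Krt18*, at 0.49. It was at 7.09 and 10.16 in *ErbB2 Ets2* null and present fibroblasts and at 10.07 and 7.81 in normal *Ets2* null and present fibroblasts. The other 4 genes closest to each of these keratins were *Cd24a*, a surface glycoprotein of epithelial and immune cells, *Dsp*, which anchors keratin filaments to desmosomes, *Serpinb2*, and *Wfdc2*, a secreted protein of epithelia. *Krt7* was closest to *Nppb*, a natriuretic peptide, at 0.18, and then to *Asic3*, *Sfn*, *Fabp7* and *Fst*. *Krt17* was closest to *Lamb3*, a laminin chain of epithelial basement membranes, at 0.19. *Dsp*, *Asic3*, *Wfdc2* and *Kazald1* followed it. With 4 arrays such likeness is a description only.

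Desmosomes and hemidesmosomes tie keratin filaments to the cell surface, and some of their genes moved in the same directions by smaller amounts. Of 19 measured linker genes, 3 were more than 2-fold lower and none higher without *Ets2* in *ErbB2* fibroblasts, where 1.74% of all genes were lower and 0.341% higher, and the median was -0.58 beside 0.04 over all genes. In normal fibroblasts 4 were more than 2-fold higher and none lower, where 0.621% of all genes were higher and 0.357% lower, and the median was 0.34 beside -0.00. *Dsp* was at 3.82 in *ErbB2 Ets2* null and 5.99 in *ErbB2 Ets2* present fibroblasts, against values of 6.64 and 4.30 in normal *Ets2* null and present fibroblasts. *Perp*, a desmosomal membrane protein, was at 4.24 and 6.06 in *ErbB2* and at 7.22 and 5.38 in normal fibroblasts, in the same order. *Itga6*, a hemidesmosome integrin chain, was at 6.38 and 7.82 in *ErbB2 Ets2* null and present fibroblasts, a difference of -1.44, and differed by 0.43 in normal fibroblasts. *Plec* and *Dst*, linkers that other cell types also make, differed by 0.20 and 0.03 in *ErbB2* and by -0.16 and 0.04 in normal fibroblasts.

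Some epithelial markers other than keratins differed in the same directions. In such bulk RNA, fewer cells of a type and less RNA per cell cannot be told apart. Of 29 measured luminal markers, 6 were more than 2-fold lower and 1 was higher without *Ets2* in *ErbB2* fibroblasts, with a median of -0.32, beside 1.74% lower, 0.341% higher and a median of 0.04 over all genes. In normal fibroblasts 4 were more than 2-fold higher and none lower, with a median of 0.09, beside 0.621% higher, 0.357% lower and a median of -0.00 over all genes. *Cdh1*, the cadherin of epithelial junctions, was at 2.84 and 5.26 in *ErbB2 Ets2* null and present fibroblasts and at 4.55 and 3.17 in normal *Ets2* null and present fibroblasts, below 6 throughout. *Cldn4*, a tight junction protein, was at 5.39 and 6.95 in *ErbB2* and at 7.35 and 5.14 in normal fibroblasts, in that order. *Wfdc2* differed by -1.97 and 2.57 and *Cd24a* by -2.74 and 2.10. *Epcam* entered these counts by its brightest probe set, which is of the _x_at class, with differences of -0.21 and -0.31. The paper lists another probe set of *Epcam* as more than 4-fold higher without *Ets2* in normal fibroblasts, so these counts may miss it. Its list also holds *Krt8*, *Krt18*, *Krt14*, *Cd24a* and *Clu* as higher by that size. *Lcn2*, a secreted protein of epithelial and myeloid cells, differed by -3.51 in *ErbB2* fibroblasts and by 0.11 in normal fibroblasts, and *Pgr*, the progesterone receptor, was the gene that was higher in *ErbB2* fibroblasts, by 1.23.

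Of 16 measured basal markers, 5 were more than 2-fold lower and none higher without *Ets2* in *ErbB2* fibroblasts, with a median of -0.46, against the same 1.74% and 0.341% of all genes. In normal fibroblasts 6 were more than 2-fold higher and none lower, with a median of 0.46, against 0.621% and 0.357%. *Itga6*, *Itgb4*, *Col17a1*, *Dsc3* and *Perp* are also among the linker genes, so these counts and those of the linkers are not separate. *Perp* and *Itga6* are in both *ErbB2* counts, and *Perp* and *Col17a1* in both normal counts. *Sfn*, an epithelial 14-3-3 protein, differed by -2.02 and 0.78, and *Lamb3* by -1.15 and 2.03. *Lama3*, a further laminin chain, differed by -0.77 and 1.64, and *Serpinb5*, an epithelial serpin, by -1.46 and 1.36. In *ErbB2* fibroblasts *Lamb3*, *Lama3* and *Serpinb5* were below 6 on both arrays. *Col17a1* lay between 3.09 and 4.39 on the 4 arrays. The linear values of the luminal markers summed to 1850 in *ErbB2 Ets2* null, 2597 in *ErbB2 Ets2* present, 2527 in normal *Ets2* null and 1734 in normal *Ets2* present fibroblasts. Those of the basal markers summed to 1793, 2571, 3292 and 2047 in that order. Both sums were thus higher on the arrays with high keratins. Much of the basal sum came from *Id4*, a transcriptional regulator, at 9.06 and 10.00 in *ErbB2 Ets2* null and present fibroblasts and at 10.69 and 9.68 in normal *Ets2* null and present fibroblasts. Without it the sums were 1258, 1546, 1644 and 1227 in the order given. Their part in the keratin differences was not tested.

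Most epithelial transcription factors were dim. On each array 3 to 5 of the 17 measured were at log2 6 or more, beside 10327 to 10407 of all 18194 genes. *Trp63*, the master factor of basal cells, lay between 3.72 and 4.24 on the 4 arrays, and *Elf5*, a luminal factor, between 4.15 and 4.47. *Gata3*, a further luminal factor, differed by -0.70 in *ErbB2* and 0.40 in normal fibroblasts, in the direction of the keratins. None of *Trp63*, *Elf5* and *Gata3* reached 6 on an array, so their values cannot show whether they follow the keratins. *Klf4* and *Sox9*, above 6 on all 4 arrays, differed by -0.12 and 0.52 in *ErbB2* and by -0.38 and -0.01 in normal fibroblasts. *Esr1*, a member of the luminal list that was also above 6 throughout, differed by -0.53 and 0.76, in the direction of the keratins. Of 17 epithelial transcription factors *Klf5* was the only member past 2-fold in either comparison, at 7.28 and 8.68 in *ErbB2 Ets2* null and present fibroblasts, and the median differences were 0.01 in *ErbB2* and 0.03 in normal fibroblasts. None of 14 genes of the cornified envelope passed 2-fold. Among 15 intermediate filament genes that are not keratins, *Nes*, which is made by progenitor and muscle cells, was the only member past 2-fold, at 8.49 and 9.80 in *ErbB2 Ets2* null and present fibroblasts. With 1.74% of all genes past 2-fold downwards in *ErbB2* and 0.621% upwards in normal fibroblasts, counts of 0 or 1 in lists of this size do not set them apart from other genes.

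Markers of other cells also differed between the arrays. Of 18 macrophage and myeloid markers, 12 were more than 2-fold lower without *Ets2* in *ErbB2* fibroblasts and 1 was in normal fibroblasts, with medians of -1.28 and -0.29, where 1.74% and 0.357% of all genes were. Of 13 skeletal muscle markers, 9 and 3 were, with medians of -1.80 and -0.86, and 1 was more than 2-fold higher in normal fibroblasts, where 0.621% of all genes were. Of 12 endothelial markers, 2 and 4 were more than 2-fold lower, with medians of -0.47 and -0.64. The myeloid, muscle and endothelial medians were below 0 in both comparisons. In *ErbB2* fibroblasts all of these markers were below 0. In normal fibroblasts 5 of the 18 myeloid, 2 of the 13 muscle and 1 of the 12 endothelial markers were above 0. The muscle gene more than 2-fold higher there was *Acta1*, which differed by -1.22 and 1.55, in the direction of the keratins. The 20 fibroblast markers had medians of -0.11 and -0.41, and the 8 contractile markers of smooth muscle and myoepithelium -0.41 and 0.37. The 6 adipocyte markers had medians of -0.03 and 0.25. Among them *Pparg*, the main regulator of fat cells, differed by -0.67 and 1.79 and *Fabp4*, a fatty acid carrier, by -0.69 and 0.87, in the direction of the keratins. The part of these cells in the keratin values was not tested.

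**Figure D5:**
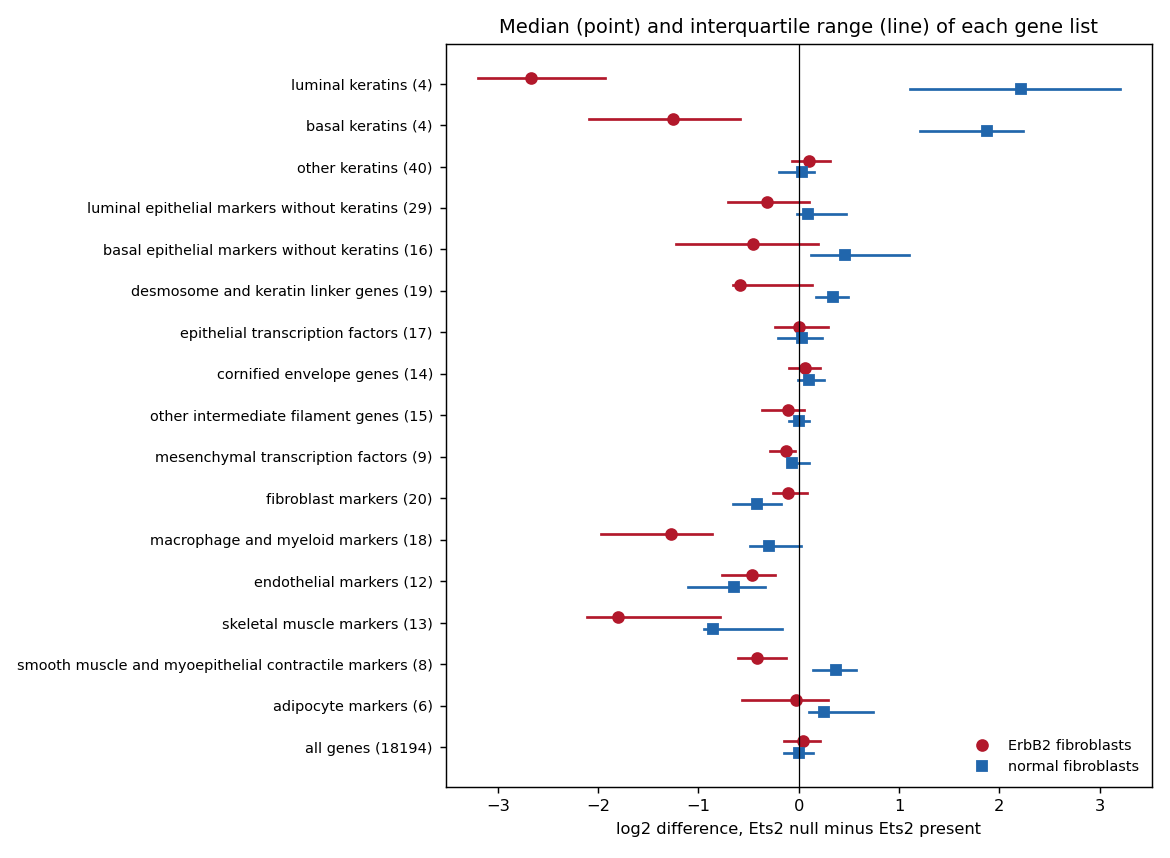
Median (points) and interquartile range (lines) of *Ets2* null minus *Ets2* present log2 values (x axis) for each gene list (rows, number of measured genes in brackets), in *ErbB2* (red) and normal fibroblasts (blue). The luminal and basal keratins lie furthest from 0 in normal fibroblasts, at 2.22 and 1.88, and the 40 other keratins lie at 0.10 and 0.03.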

How the data were processed

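RNA of second-passage mammary fibroblasts was hybridised to Affymetrix mouse arrays, 1 array for each of 4 genotypes. The authors deposited log2 expression values made with RMA, which subtracts background, brings all arrays to 1 distribution and gives each probe set a single value. A change common to most genes is removed by that step. Neither the labels nor the methods give the RMA software or its version. Of the probe sets, 34958 had 1 symbol in the platform annotation, 932 had several and 9211 were unnamed here. A gene took the value of its probe set with the highest mean. Log2 differences were taken with pandas 2.3.3 and numpy 2.4.6 (Python 3.11.15), loess fits with statsmodels 0.14.6, and figures with matplotlib 3.10.9. No test was possible with 1 array per genotype, whose number limits the precision, and a size of 4-fold was used instead. The steps were tested on simulated data. Named genes were the 8 keratins, other keratins reaching log2 6, the list members with the largest *Ets2* differences, and the 5 genes closest in profile to each keratin with a range over 2, among genes reaching log2 6. Genomic neighbours, *Plec*, *Dst*, *Epcam*, *Trp63*, *Elf5*, *Gata3*, *Esr1*, *Klf4* and *Sox9* were picked with their values known. The keratins and the lists were chosen with earlier results of these data known. Median centring, quantile normalization and loess (span 0.4) were tried as alternatives, as were sizes of 2-fold and 8-fold, other choices of probe set, a floor at log2 6, and means in place of medians.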

Additional observations from a re-analysis of the deposited data

Results flagged for a closer look

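For 5 keratins the *Ets2* difference had opposite signs in *ErbB2* and normal fibroblasts with both past 2-fold. The difference in *ErbB2* fibroblasts minus that in normal fibroblasts was -7.09 for *Krt18*, -6.18 for *Krt8*, -6.06 for *Krt14*, -3.75 for *Krt17* and -3.59 for *Krt7* on the log2 scale. For the class medians it was -4.88 for the luminal and -3.13 for the basal keratins. For *Krt14* the value rests on its _x_at probe set, and its other probe sets had -3.53 and -0.38. *Krt17* stayed below 6 on all 4 arrays. The share of all genes with such opposite signs was not counted. With 1 array per genotype these differences were not tested.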

How the results depend on the processing

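No paired analysis was possible because there was 1 array per genotype and the labels give no replicate numbers, so no replicate could be left out either. Signal over background is unknown for these arrays, and values under log2 6 limit what *Krt15*, *Krt17* and the low arrays of *Krt18* and *Krt14* can show. A value counted as moved when it changed by more than the robust SD of all gene differences (0.271 for *Ets2* in *ErbB2*, 0.215 for *Ets2* in normal, 0.218 for the oncogene without *Ets2*, 0.213 for it with *Ets2*), and a count when it changed by more than 1.5 times. Of 92 recomputed class medians and counts, 77 did not move, and no median changed sign. Median centring, quantile normalization and loess moved none of them. RMA had already brought all arrays to 1 distribution, so centring and quantile normalization could change little and are a weak check. With the probe sets of a gene averaged, the basal median was -0.89 for *Ets2* in *ErbB2*, 1.26 for *Ets2* in normal fibroblasts, and -1.58 without and 0.62 with *Ets2* for the oncogene, and the count past 4-fold was 2 for *Ets2* in normal fibroblasts and 3 for the oncogene without *Ets2*. Without _x_at and _s_at probe sets the basal median was 1.47 for *Ets2* in normal fibroblasts and -1.81 for the oncogene without *Ets2*. Means in place of medians gave 1.57 and -1.91 for these, and 1.76 for the luminal keratins for the oncogene with *Ets2*. At 8-fold the counts were 2 for *Ets2* in normal fibroblasts, and 3 without and 1 with *Ets2* for the oncogene, and at 2-fold the last was 5. Of 192 values of single keratins 16 moved, and none past 4-fold changed sign. *Krt7*, *Krt18*, *Krt19*, *Krt5* and *Krt15* have 1 probe set each, so other choices of probe set could not change their values. Of a further 46 values recomputed under alternatives chosen after seeing the data, 44 did not move. These cover the medians of the luminal, basal and desmosome lists, the count of keratins high on the same arrays, and the profile distance of *Krt14* to *Krt5* minus that to *Krt8*. That last value was 0.80 as reported, so that *Krt14* was nearer to *Krt8*, and changed sign to -0.34 with probe sets averaged and to -0.13 without _x_at and _s_at probe sets.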

Other observations

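A probe set named for both *Krt17* and *Krt14* was left out because it carries 2 symbols. Its log2 value was 5.33 in *ErbB2 Ets2* null, 5.12 in *ErbB2 Ets2* present, 5.12 in normal *Ets2* null and 5.36 in normal *Ets2* present fibroblasts, below 6 on every array and without the order seen for *Krt14*.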
